A study of Mus musculus with 63 samples.

Results

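The 10 genes described here carry glucose from uptake to lactate or respond to low oxygen. They are the glucose transporter Slc2a1, the hexokinases Hk1 and Hk2, the aldolase Aldoa, the phosphoglycerate kinase Pgk1, the pyruvate kinase Pkm, the lactate dehydrogenases Ldha and Ldhb, the adenylate kinase Ak4 and the stress-induced gene Ndrg1. They were taken by symbol from the 23078 genes of the deposited table, and all 10 passed the filter on low values with the 15231 genes tested (at least 1 TPM in at least 3 libraries, TPM being the share of a library's transcripts that a gene holds, scaled for transcript length). Ak4 and Ndrg1 were chosen by their measured time courses in these libraries, so their values are given as a description with no test. The other 8 genes were picked as a pathway, with earlier results of these data known.

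RNA was measured in 63 libraries of GFP-positive cells sorted from the dorsal cortex of C57Bl/6 mouse embryos, and every embryo carried the Ski knock-out, so no group shows the wild type. Neural stem cells (NSC) came from Hes5::GFP; Ski KO embryos at E11.5, E12.5, E13.5, E14.5, E15.5, E16.5, E17.5 and E18.5 (26 libraries). For basal progenitors (BP) the source was Tbr2::GFP; Ski KO embryos, on each day between E12.5 and E18.5 (24 libraries). The same reporter line gave the newborn neurons (NBN), between E15.5 and E18.5 (13 libraries). A group holds 2 to 6 libraries, and the labels do not say whether these came from separate embryos or how BP and NBN were parted, so the p-values measure the spread between libraries, which may be technical.

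In glycolysis, glucose enters through transporters such as Slc2a1, is trapped by hexokinases, split by aldolase and turned into pyruvate by a chain that includes Pgk1 and Pkm. Lactate dehydrogenases then interconvert pyruvate and lactate: Ldha encodes the M subunit, named for muscle, and Ldhb the H subunit, named for heart. When oxygen is low, the factor Hif1a is no longer marked for destruction by prolyl hydroxylases, enters the nucleus and switches on genes with a hypoxia response element, among them Slc2a1, Hk2, Pgk1, Aldoa and Ldha. Early cortical stem cells sit in a tissue with few vessels and are known for high glycolysis, and neurons rely more on mitochondria, which is background and not a measurement made here.

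Marker levels followed the labels in part. Over all groups, the summed level of 8 stem cell markers ran from 1131 to 6664 TPM in NSC libraries, from 482.6 to 896.4 TPM in BP and from 190.4 to 493.4 TPM in NBN. The sum of 8 neuron markers ran from 697.8 to 6647 TPM in NSC, from 4159 to 6402 TPM in BP and from 6806 to 9446 TPM in NBN, and none of these 8 was at 0 in every library of a group. Neuron marker RNA was thus measured in the progenitor groups too. The sum of 6 basal progenitor markers ran from 374 to 1752 TPM in NSC and from 1099 to 1766 TPM in BP. In NBN it ran from 138.7 to 332.6 TPM. The NSC and BP ranges of this sum overlapped, with medians of 1145 and 1195 TPM at E14.5. All 6 interneuron markers were higher in NSC than in BP (median log2 difference 3.36). Their sum ran from 53.11 to 719 TPM in NSC and from 3.015 to 28.03 TPM in BP. Their part in the NSC levels was not tested. In NSC the neuron sum had a median of 1632 TPM at E11.5, 5912 TPM at E17.5 and 2733 TPM at E18.5, while the sum of 5 division markers had medians of 978.7, 197.1 and 799.5 TPM on those days. In bulk RNA, fewer cells of a type and less RNA per cell cannot be told apart, and TPM is a share of each library's transcripts. Transcripts of Ski itself were found in every library, at 17.2 to 50.1 TPM, and the labels do not say which part of the gene was removed.

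In NSC most of the 8 tested genes started high at E11.5 and fell over the span, while Hk1 rose over the span. From E11.5 to E18.5 in NSC, 6 of the 8 tested genes fell, against 27.7% of all tested genes, 1 rose, against 37.1%, and Ldhb did not pass the test. Changes are given as the fitted slope over the whole span on the scale log2(TPM + 1), with its standard error (SE). The adjusted p-values are from limma with the Benjamini-Hochberg correction over 15231 genes, and "passed" means an adjusted p under 0.05. The median change of the 8 genes was -1.64, beside 0.09 for all tested genes.

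**Figure D1:**
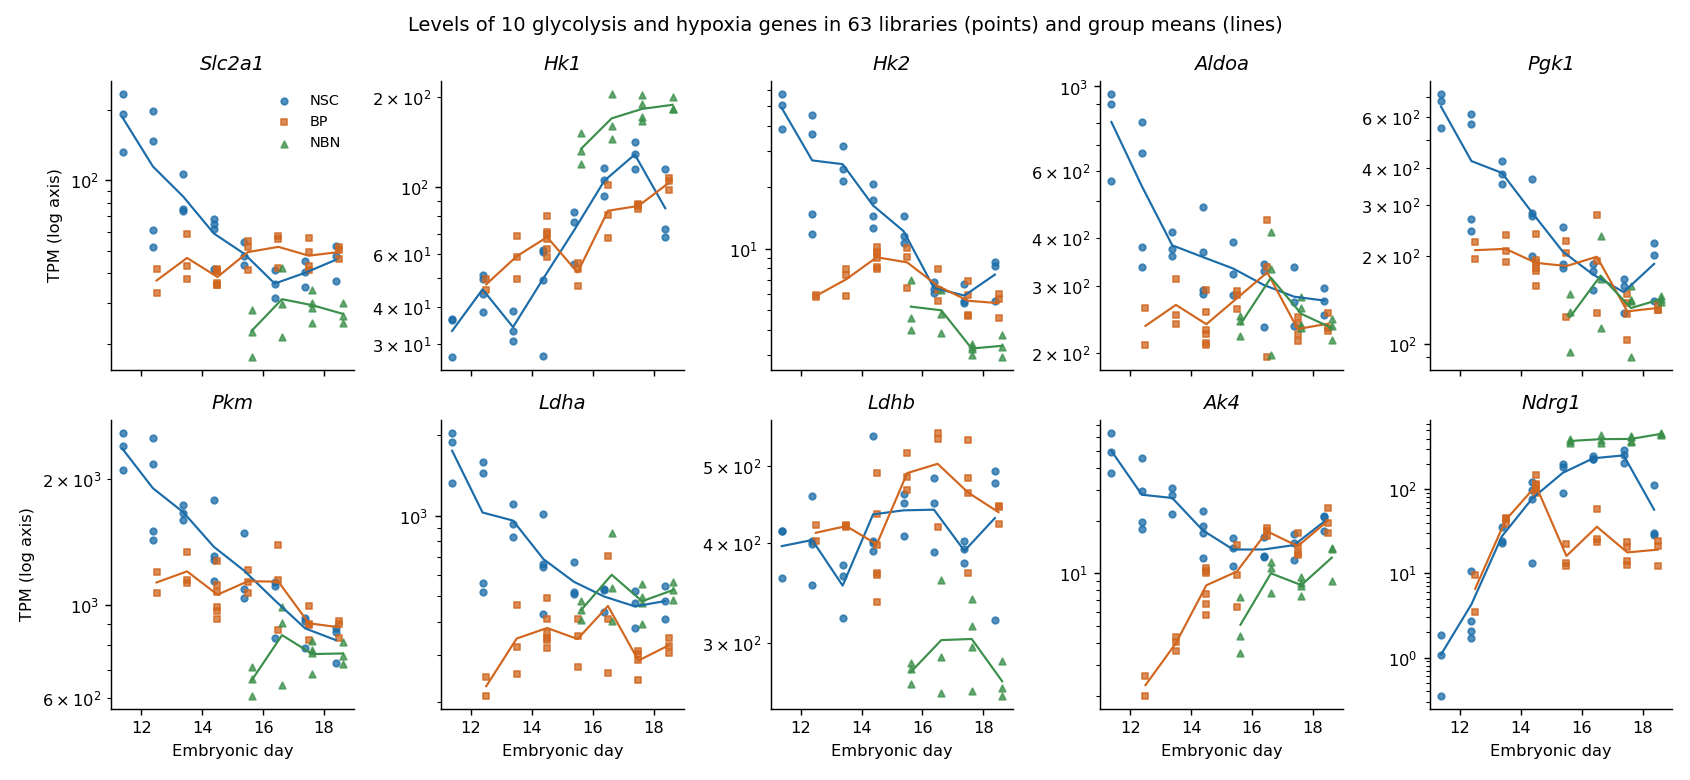
Level of each of the 10 genes (TPM, log axis) against embryonic day; each point is 1 library and each line joins the group means of NSC (blue circles), BP (orange squares) or NBN (green triangles). Slc2a1, Hk2, Aldoa, Pgk1, Pkm and Ldha descend in NSC from their E11.5 level towards that of BP. Hk1 and Ndrg1 are higher in NSC at E17.5 than at E11.5, drop at E18.5 and are highest in NBN. In BP Ndrg1 peaks at E14.5. The axes differ between panels.

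Slc2a1 encodes GLUT1, the main glucose transporter of vessels and progenitors in the brain (chromosome 4, 119108711 to 119137983, plus strand; gene positions are those of GENCODE vM21 on GRCm38). In NSC it stood at 191, 233 and 131 TPM in the 3 libraries of E11.5 and at 37.0, 52.5 and 47.6 TPM in those of E18.5. All 3 early libraries lay above the late ones. Its change over the course was -1.999 ± 0.205 on the log2 scale (SE; adjusted p = 6.15e-12), a 4.00-fold fall. In BP the libraries of E12.5 stood at 41.7 and 32.9 TPM and those of E18.5 at 51.8, 50.1 and 46.2 TPM, and the slope of 0.37 ± 0.23 did not pass (adjusted p = 0.211, but 0.0291 in a fit to the BP libraries alone). Of 7 tested endothelial and pericyte markers, 7 rose in BP over this span (median 1.58), and their part in the BP levels of Slc2a1 was not tested. NBN libraries held 17.7 to 42.3 TPM over the 4 days, and their slope of 0.21 ± 0.26 did not pass either (adjusted p = 0.665).

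The hexokinases crossed over. Hk2 (chromosome 6, 82725025 to 82774454, minus strand), the inducible hexokinase of growing tissue, stood at 57.2, 50.8 and 38.7 TPM in NSC at E11.5 and at 5.53, 8.21 and 8.64 TPM at E18.5. These groups did not overlap, and the change over the span was -2.75 ± 0.19, a 6.72-fold fall (adjusted p = 4.82e-17). In BP Hk2 was at 5.91 and 5.82 TPM at E12.5 and at 4.56, 6.00 and 5.67 TPM at E18.5, and its slope of -0.29 ± 0.22 did not pass (adjusted p = 0.303). In NBN it went from 7.04, 3.98 and 4.58 TPM at E15.5 to 3.29, 3.78 and 2.96 TPM at E18.5, ranges that did not overlap, although the slope of -0.58 ± 0.24 missed the threshold (adjusted p = 0.102).

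Hk1 (chromosome 10, 62268855 to 62379908, minus strand), the constitutive hexokinase of adult brain, stood at 27.3, 36.1 and 36.3 TPM in NSC at E11.5, at 141.6, 115.2 and 129.0 TPM at E17.5 and at 114.8, 68.3 and 72.4 TPM at E18.5. The E18.5 libraries were all below those of E17.5 and all above those of E11.5. Hk1 rose by 1.82 ± 0.14 over the span in NSC (adjusted p = 8.74e-16). In BP it rose from 45.4 and 49.6 TPM at E12.5 to 97.8, 105 and 108 TPM at E18.5, by 1.01 ± 0.16 (adjusted p = 6.62e-07). In NBN it stood at 120, 152 and 132 TPM at E15.5 and at 183, 182 and 200 TPM at E18.5, without overlap, and the slope of 0.47 ± 0.18 missed the threshold (adjusted p = 0.0594; it passed at 0.0193 without NSC E14.5 replicate 1, at 0.0496 without NSC E14.5 replicate 2, at 0.0422 without NSC E18.5 replicate 1 and at 0.0359 without NBN E16.5 replicate 2).

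Aldoa, the aldolase of muscle and most other tissues, and Pgk1, which makes the first ATP of the pathway, fell together in NSC. Aldoa (chromosome 7, 126795234 to 126800751, minus strand) was at 955, 900 and 566 TPM at E11.5 and at 252, 274 and 296 TPM at E18.5, a change of -1.35 ± 0.18 (adjusted p = 7.55e-09). Pgk1 (chromosome X, 106187100 to 106203699, plus strand) was at 718, 682 and 551 TPM at E11.5 and at 141, 202 and 221 TPM at E18.5, a change of -1.95 ± 0.20 (adjusted p = 8.00e-12). Neither gene's E18.5 libraries reached those of E11.5. In BP Pgk1 fell as well, from 223 and 196 TPM at E12.5 to 130, 137 and 131 TPM at E18.5 (-0.72 ± 0.23, adjusted p = 0.00811, but 0.0581 without BP E12.5 replicate 1), whereas Aldoa had a slope of 0.01 ± 0.20 (adjusted p = 0.973). Pgk1 is uncertain: its processed copy Pgk1-rs7 made up 45.9% to 49.5% of the sum of both genes in every library, with a median of 48.8%, and followed it at a Pearson r of 0.999 over the 19 group means, and how the reads of these near-identical genes were split between them is not known.

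Pkm, pyruvate kinase of muscle type, had the highest mean of the 10 genes in all 19 groups, on the TPM scale, which is per transcript length. In NSC it stood at 2575, 2405 and 2105 TPM at E11.5 and at 727, 861 and 883 TPM at E18.5. The change was -1.53 ± 0.13 (adjusted p = 8.45e-15). In BP it fell less, from 1197 and 1065 TPM at E12.5 to 902, 917 and 832 TPM at E18.5 (-0.39 ± 0.14, adjusted p = 0.0246, but 0.138 without BP E12.5 replicate 1 and 0.0588 without BP E18.5 replicate 3). The gene (chromosome 9, 59656368 to 59679375, plus strand) makes the PKM1 and PKM2 forms by alternative splicing, and a level per gene cannot tell them apart.

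The lactate dehydrogenases differed. Ldha (chromosome 7, 46841475 to 46855627, plus strand) was at 2035, 1885 and 1326 TPM in NSC at E11.5 and at 409, 478 and 547 TPM at E18.5, and fell by 1.75 ± 0.23 over the span (adjusted p = 3.41e-09). In BP it began lowest of all groups, at 247 and 211 TPM at E12.5, and stood at 306, 348 and 326 TPM at E18.5, with a slope of 0.26 ± 0.26 that did not pass (adjusted p = 0.441). In NBN it ran from 392 to 863 TPM with a slope of 0.14 ± 0.29 (adjusted p = 0.815). Ldhb (chromosome 6, 142490249 to 142507957, minus strand) stayed between 320 and 546 TPM in all 26 NSC libraries, and its slope of 0.12 ± 0.10 did not pass (adjusted p = 0.320, but 0.0422 with a slope of 0.24 without NSC E18.5 replicate 1 and 0.0160 with a slope of 0.22 under quantile scaling). Its slopes in BP, 0.18 ± 0.12, and in NBN, -0.03 ± 0.13, did not pass either (adjusted p = 0.219 and 0.913).

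Ak4 and Ndrg1, the genes picked for their courses, are given as a description. Ak4 (chromosome 4, 101419277 to 101466995, plus strand) encodes an adenylate kinase of the mitochondrial matrix. It stood at 63.1, 49.5 and 37.3 TPM in NSC at E11.5, at 15.96, 14.01 and 11.04 TPM at E15.5 and at 21.1, 17.3 and 20.9 TPM at E18.5. In BP it went the other way, from 2.00 and 2.60 TPM at E12.5 through a median of 8.86 TPM (5.78 to 10.7) in the 6 libraries of E14.5 to 16.9, 23.7 and 19.4 TPM at E18.5. By E18.5 the ranges of NSC and BP overlapped. In NBN it was at 7.36, 4.41 and 3.49 TPM at E15.5 and at 9.05, 13.8 and 14.0 TPM at E18.5. The fitted changes over the span were -1.34 in NSC, 2.61 in BP and 0.98 in NBN.

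Ndrg1 (chromosome 15, 66929318 to 66969640, minus strand), known as a gene induced by hypoxia and differentiation and needed for myelin upkeep in nerves, was nearly silent in the youngest stem cells. It stood at 0.353, 1.08 and 1.83 TPM in NSC at E11.5, at 24.2, 35.6 and 23.1 TPM at E13.5, at 257, 207 and 294 TPM at E17.5 and at 113, 30.5 and 28.4 TPM at E18.5. In BP it was at 3.52 and 9.59 TPM at E12.5, reached a median of 106 TPM (90.1 to 147) in the 6 libraries of E14.5 and stood at 12.4, 22.6 and 13.4 TPM a day later. Libraries of BP from E15.5 on did not reach those of E14.5; they ran from 12.3 to 58.3 TPM. NBN libraries held 357 to 464 TPM on all 4 days, above every library of NSC and BP. The neuron marker sum moved with Ndrg1 in NSC but not in BP, where its median was 5664 TPM at E14.5 and 5188 TPM at E15.5; its part in the Ndrg1 course was not tested.

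**Figure D2:**
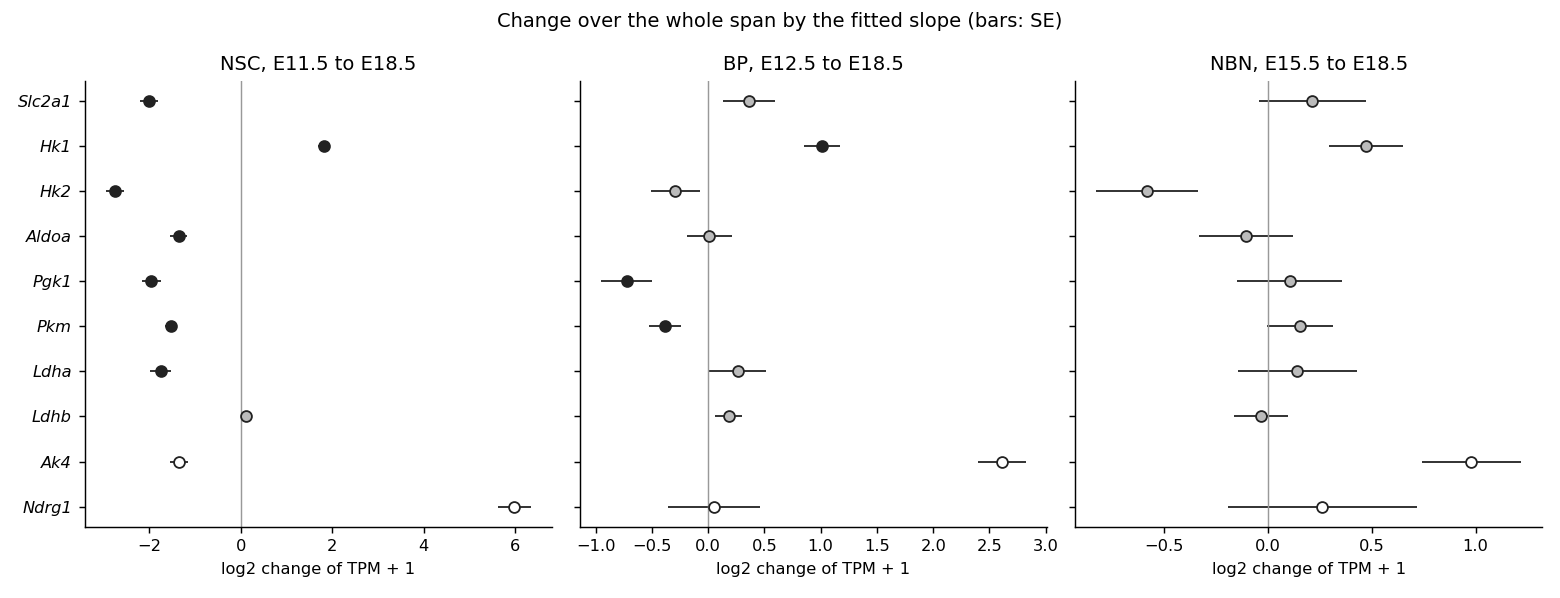
Change of each gene over the whole span in NSC, BP and NBN, from the slope through the group means (log2 scale of TPM + 1, bars show the SE); black points passed the test, grey points did not, and the open points of Ak4 and Ndrg1 were not tested. The NSC panel holds 6 black points left of 0 and Hk1 right of it, and no NBN point is black; the horizontal axes differ.

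In BP, 1 of the 8 tested genes rose over E12.5 to E18.5, where 27.5% of all tested genes did, and 2 fell, where 15.1% did. The riser was Hk1 and the fallers Pgk1 and Pkm. In NBN over E15.5 to E18.5, limma called none of the 8, where 10.9% of all tested genes rose and 5.08% fell. The smallest limma p-values of the 8 before adjustment were 0.0101 for Hk1 and 0.0212 for Hk2. No share of all tested genes before adjustment stands beside them. The tests for a difference on any day gave 7 of 8 genes in NSC, all but Ldhb, beside 72.7% of all tested genes, and 1 of 8 in BP, Hk1, beside 38.6%. The BP count was 2 without NSC E12.5 replicate 1, NSC E12.5 replicate 4 or BP E17.5 replicate 4, 3 without NSC E12.5 replicate 2, NSC E12.5 replicate 3 or BP E15.5 replicate 2, and 4 without BP E16.5 replicate 1, Hk2, Pgk1, Pkm and Ldhb being the genes that were gained. All genes passed on this test ran from 4996 to 6936 with single libraries left out, beside 5874 of 15231 with all libraries.

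The slopes of NSC and BP over their shared days differed for most of the genes. Of the 8, 5 had a more negative slope in NSC than in BP, where 15.6% of all tested genes did, and 1 a more positive slope, where 14.2% did. The differences were -1.80 ± 0.30 for Hk2 (adjusted p = 8.30e-06), -1.66 ± 0.31 for Slc2a1 (adjusted p = 6.15e-05), -1.40 ± 0.35 for Ldha (adjusted p = 0.00165) and -0.85 ± 0.19 for Pkm (adjusted p = 0.000632). Aldoa differed (-0.84 ± 0.28, adjusted p = 0.0174), a call that ended without BP E12.5 replicate 2 (adjusted p = 0.0788) and without the 4 libraries of NSC E12.5 (-0.40, adjusted p = 0.262). Hk1 differed by 0.58 ± 0.21 (adjusted p = 0.0337), and this call is weak: leaving out any of 7 single libraries ended it. Those were NSC E12.5 replicate 3 (adjusted p = 0.0581), NSC E13.5 replicate 3 (0.0523), NSC E18.5 replicate 1 (0.133), BP E12.5 replicate 1 (0.0505) and replicate 2 (0.0970), BP E13.5 replicate 2 (0.0590) and BP E18.5 replicate 1 (0.0587). Pgk1, at -0.69 ± 0.31, did not pass (adjusted p = 0.0841, but 0.0389 and 0.0275 without NSC E12.5 replicates 1 and 2 and 0.0472 without BP E16.5 replicate 1), and neither did Ldhb, at -0.07 ± 0.16 (adjusted p = 0.795).

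The fall was not uniform between libraries of a day. At E12.5 the 4 NSC libraries split on the glycolysis genes. Ldha stood at 561 and 515 TPM in replicates 1 and 2 and at 1586 and 1443 TPM in replicates 3 and 4, Slc2a1 at 51.7 and 61.1 against 198 and 147 TPM, and Hk2 at 11.8 and 14.7 against 45.5 and 36.3 TPM. Replicates 3 and 4 lay within the E11.5 ranges of these 3 genes, except Hk2 in replicate 4, and replicates 1 and 2 lay below every E13.5 library for all 3. The neuron marker sum was 3526 and 3395 TPM in replicates 1 and 2 and 2462 and 2255 TPM in replicates 3 and 4, the stem cell marker sum ran only from 2582 to 2756 TPM, and the erythroid sum was 250.9, 12.07, 88.85 and 4514 TPM in replicates 1 to 4. The part of these marker levels in the split was not tested.

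Further libraries stood apart from their group. In NSC at E14.5, replicate 1 held Ndrg1 at 13.4 TPM beside 123, 99.1 and 77.2 TPM in the others and Hk1 at 27.5 TPM beside 61.6, 61.0 and 49.1 TPM. Its neuron marker sum was 2475 TPM, beside 4101, 5092 and 4281 TPM. In NSC at E18.5, replicate 1 was the high library for Ndrg1 and Hk1, and its neuron sum was 4848 TPM beside 2733 and 2473 TPM. At E16.5, replicate 2 held Ldha at 708 TPM in BP, beside 258 and 409 TPM, and at 863 TPM in NBN, beside 401 and 536 TPM. Replicate 2 was also the highest library for Aldoa in both cell types, at 445 TPM in BP and 416 TPM in NBN. Replicate 1 of E16.5, the lowest library for Ldha and Aldoa in both cell types, is among 8 libraries whose score on the main axis of within-group variation exceeded 1.5 SD in size. Marker levels in these libraries were set beside the values only, and their part was not tested.

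**Figure D3:**
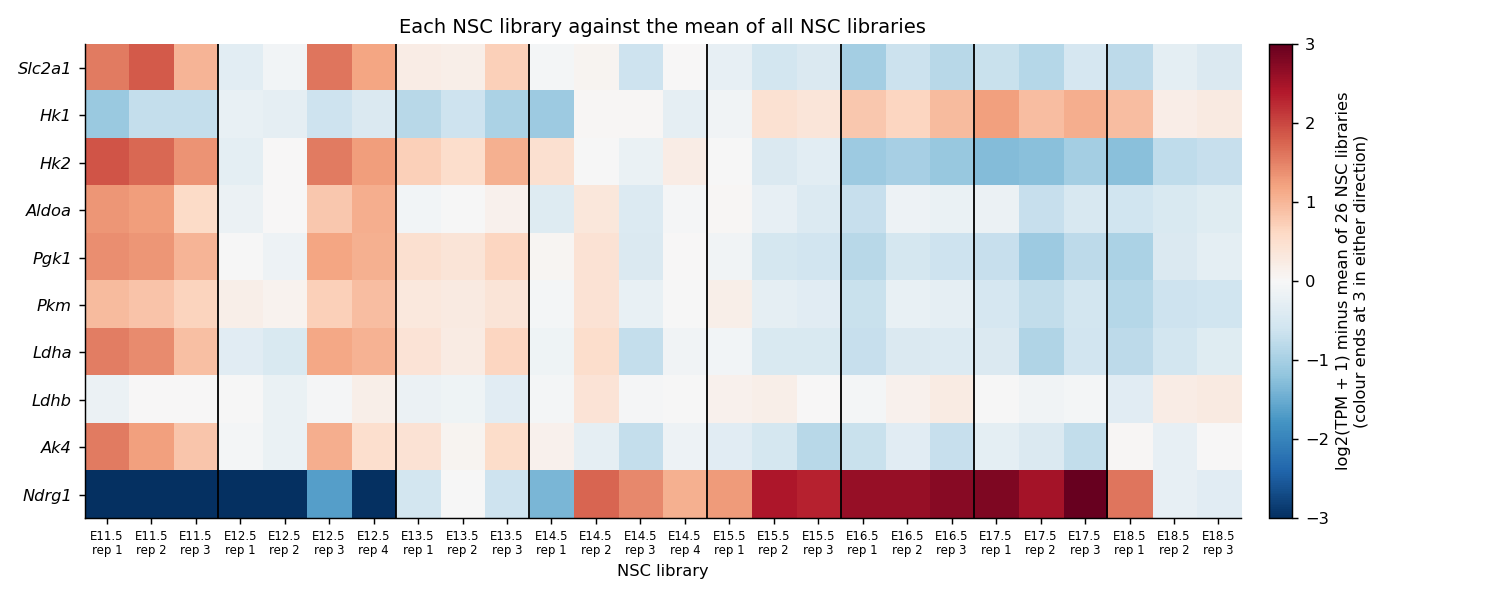
The 26 NSC libraries in columns, ordered by day and replicate, and the 10 genes in rows; colour is log2(TPM + 1) minus the mean of the 26 libraries, red above and blue below, and the scale ends at 3 in either direction. E12.5 replicates 3 and 4 resemble E11.5 in the rows of Slc2a1, Hk2, Pgk1 and Ldha, replicates 1 and 2 do not, and the rows of Hk1 and Ndrg1 turn from blue to red with E18.5 replicates 2 and 3 paler.

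At E18.5 the neuron and division marker sums of NSC lay nearer their early levels than at E17.5. Other sums lay farther from them: the stem cell sum had medians of 2480 TPM at E11.5, 1269 TPM at E17.5 and 6655 TPM at E18.5, the oligodendrocyte lineage sum 24.32, 63.7 and 368.9 TPM, and the astrocyte sum 35.28, 85.34 and 353.1 TPM. The part of these markers in the levels of the members was not tested. None of the 8 tested genes had its E18.5 libraries all above those of E17.5, where 32.2% of all tested genes did, and 1, Hk1, had them all below, where 11.4% did. Against E11.5, 6 of the 8 had their E18.5 libraries all below, where 24.0% of all tested genes did, and Hk1 all above, where 40.4% did.

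For each pair of cell types, the differences were averaged over shared days. Between NSC and BP, 6 of the 8 genes were higher in NSC, where 27.2% of all tested genes were, and none was lower, where 20.8% were. Ldha was higher in NSC by 0.92 ± 0.11 on the log2 scale, 1.89-fold, on 7 of 7 days (adjusted p = 1.59e-09), and Hk2 by 0.75 ± 0.10 on 6 of 7 days (adjusted p = 5.49e-09). Pgk1 was higher by 0.44 ± 0.10 (adjusted p = 0.000262) and Aldoa by 0.41 ± 0.09 (adjusted p = 0.000135), each on 6 of 7 days. Pkm, higher by 0.19 ± 0.06 on 4 of 7 days (adjusted p = 0.00947), and Slc2a1, by 0.28 ± 0.10 on 3 of 7 days (adjusted p = 0.0204), did not pass without NSC E12.5 (0.10, adjusted p = 0.160, and 0.09, adjusted p = 0.363). Hk1, at -0.04 ± 0.07 (adjusted p = 0.628), and Ldhb, at -0.11 ± 0.05 (adjusted p = 0.0633), did not pass. Ldhb passed, at adjusted p-values from 0.0253 to 0.0490, when any of 8 libraries was left out (NSC E12.5 replicate 4, NSC E14.5 replicate 2, NSC E16.5 replicate 3, NSC E18.5 replicates 2 and 3, BP E14.5 replicate 5, BP E16.5 replicate 1 or BP E17.5 replicate 4).

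By day, the separation of NSC and BP libraries varied. At E12.5 all NSC libraries were above both BP libraries for Hk2, Pkm, Ldha, Pgk1, Aldoa and Slc2a1, so 6 of 8 genes, where 24.0% of all tested genes showed this. No member had all its NSC libraries below BP that day, beside 19.3%. At E13.5 the same 6 genes lay above, beside 28.4% of all tested genes, and Hk1 and Ldhb lay below, beside 26.3%. At E14.5 Hk2 alone lay above, beside 9.67%, and none below, beside 4.05%. At E15.5 Hk2 and Ldha lay above, beside 19%, and Ldhb below, beside 8.07%. At E16.5 none lay above, beside 9.22%, and Slc2a1 lay below, beside 9.61%. At E17.5 Hk1 and Ldha lay above, beside 12.6%, and none below, beside 11.3%. At E18.5 Ldha and Pgk1 lay above, beside 29.3%, and none below, beside 18.1%. The 4 NSC libraries of E12.5 include the replicates with low levels, which were still above BP: Ldha at 515 TPM was the lowest of them, and 247 TPM the highest in BP.

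Newborn neurons held more Hk1 and less Hk2, Ldhb and Slc2a1 than either progenitor. Against BP, 2 of 8 genes were higher in NBN, where 25.3% of all tested genes were, and 4 were lower, where 33.3% were. Hk1 was higher by 1.07 ± 0.09, 2.10-fold (adjusted p = 1.57e-14), and Ldha by 0.56 ± 0.15 (adjusted p = 0.00101), each on 4 of 4 days. Lower were Slc2a1 (-0.85 ± 0.13, adjusted p = 2.70e-07), Ldhb (-0.72 ± 0.07, adjusted p = 3.25e-13), Hk2 (-0.54 ± 0.13, adjusted p = 0.000233) and Pkm (-0.42 ± 0.08, adjusted p = 1.91e-05), all on 4 of 4 days. Pgk1 (-0.16 ± 0.13, adjusted p = 0.305) and Aldoa (-0.04 ± 0.12, adjusted p = 0.785) did not pass, but Pgk1 did, as the 7th member, with the replicate number within each day as a block (-0.16, adjusted p = 0.00245). All 8 microglia and macrophage markers tested were higher in NBN than in BP (median 1.69), and all 8 rose within NBN (median 3.33), where their sum had a median of 5.191 TPM at E15.5 and 113.8 TPM at E18.5. Their part in the NBN levels was not tested. For Ldhb the NBN libraries ran from 257 to 360 TPM over the 4 days and the BP libraries of those days from 367 to 550 TPM, without overlap.

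Against NSC, Hk1 was the 1 gene of 8 that was higher in NBN, by 0.82 ± 0.09 (adjusted p = 1.67e-10), where 21.8% of all tested genes were higher. Lower were 5 of 8, where 32.8% of all tested genes were lower: Hk2 (-0.77 ± 0.13, adjusted p = 1.18e-06), Slc2a1 (-0.63 ± 0.13, adjusted p = 8.72e-05), Ldhb (-0.56 ± 0.07, adjusted p = 9.88e-10), Pkm (-0.36 ± 0.08, adjusted p = 0.000218) and Pgk1 (-0.35 ± 0.13, adjusted p = 0.0236). The call of Pgk1 ended without NSC E15.5 replicate 1 (adjusted p = 0.0524), NBN E15.5 replicate 2 (0.0570) or NBN E16.5 replicate 1 (0.0697). Ldha, at 0.02 ± 0.15 (adjusted p = 0.937), and Aldoa, at -0.21 ± 0.12 (adjusted p = 0.138), did not pass. BP and NBN shared their reporter line, and the comparisons of NBN with BP and with NSC share the NBN libraries. As a description, Ndrg1 was higher in NBN than in BP by 4.26 and than in NSC by 1.504, and Ak4 was lower, with log2 differences of -0.74 and -0.77.

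**Figure D4:**
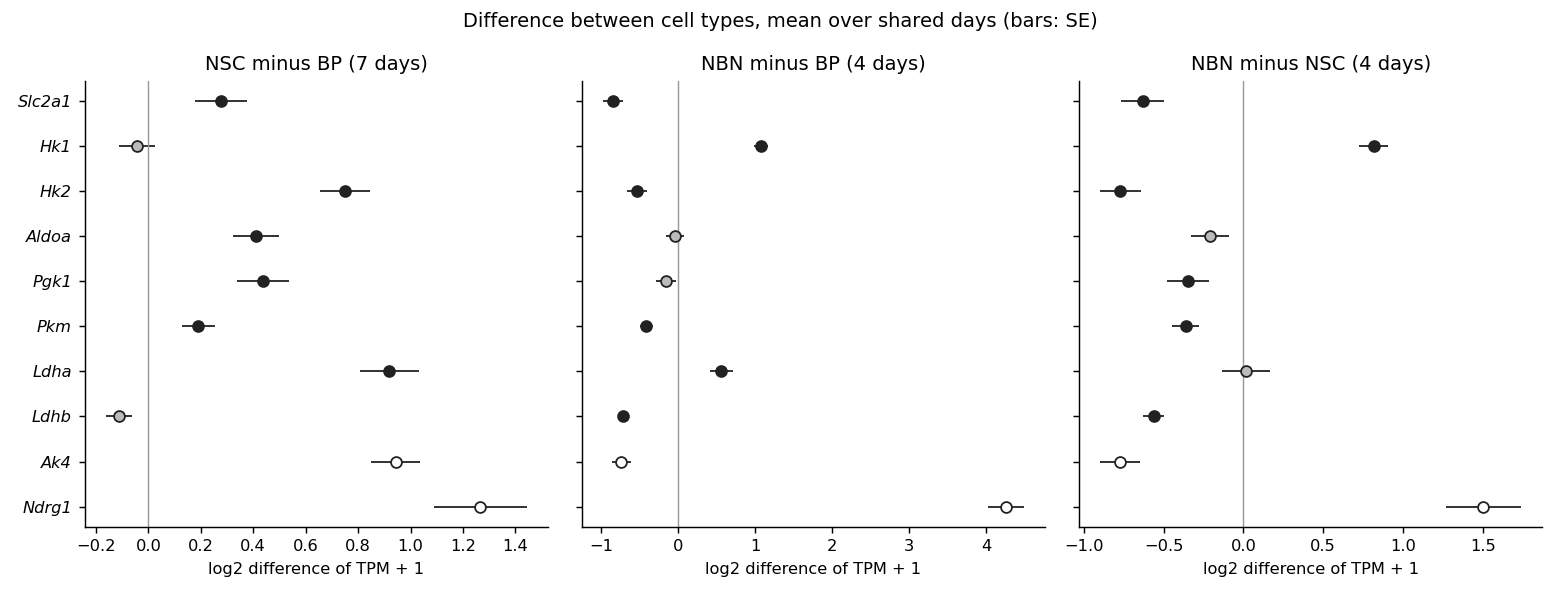
Difference between cell types for each gene, as the mean over the shared days on the scale log2(TPM + 1), with bars for the SE; black points passed the test, grey points did not, and the open points were not tested. Ldha and Hk2 stand right of 0 in the panel of NSC minus BP, and Slc2a1, Hk2, Pkm and Ldhb stand left of 0 in both panels of NBN; the horizontal axes differ.

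The isozyme pairs, described per library, show which form dominated. Hk2 exceeded Hk1 in all 3 NSC libraries of E11.5, with Hk2 to Hk1 ratios of 2.10, 1.41 and 1.07, while at E17.5 the ratios were 0.0381, 0.0482 and 0.0522. In BP they were 0.130 and 0.117 at E12.5 and 0.0466, 0.0571 and 0.0527 at E18.5, and in NBN they were 0.0180, 0.0208 and 0.0148 at E18.5. The ratio of Ldhb to Ldha was 0.178, 0.220 and 0.312 in NSC at E11.5 and 0.782, 0.997 and 0.903 at E18.5. In BP the ratio was 1.71 and 1.91 at E12.5 and 1.46, 1.27 and 1.30 at E18.5. It was below 1 in 4 of the 24 BP libraries, E13.5 replicate 3 (0.910), E14.5 replicates 2 and 5 (0.994 and 0.9745) and E16.5 replicate 2 (0.777). In NBN it ran from 0.334 to 0.727. Averaged over group means, the log2 ratio (TPM + 1) of Ldhb to Ldha was -0.78 in NSC, 0.45 in BP and -0.80 in NBN. That of Hk2 to Hk1 was -2.02, -3.18 and -5.05. These averages cover unlike days, as NSC begins at E11.5 and NBN at E15.5. From E15.5 on, the Ldhb to Ldha log2 ratio ran from -0.569 to -0.003 in NSC libraries and from -1.58 to -0.458 in NBN. For Hk2 to Hk1 it ran from -4.478 to -1.874 in NSC and from -5.668 to -3.911 in NBN.

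**Figure D5:**
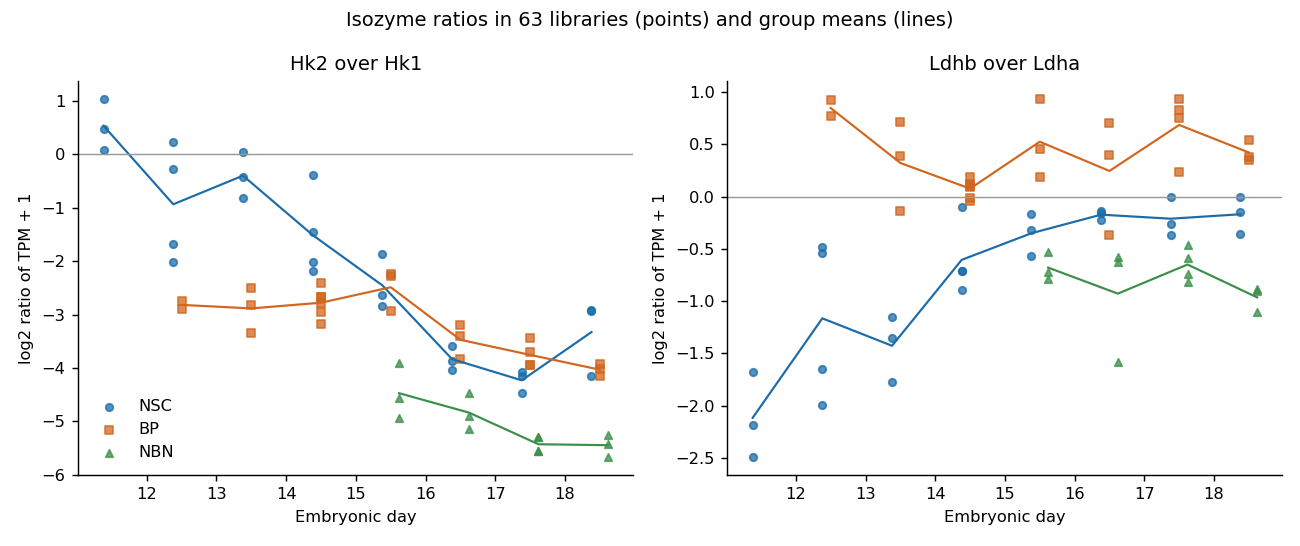
Log2 ratio of Hk2 to Hk1 (left) and of Ldhb to Ldha (right), computed from TPM + 1, against embryonic day; points are libraries, lines join group means, and 0 means equal levels. The hexokinase ratio of NSC drops from above 0 at E11.5 to -4.07 or less at E17.5, and the lactate dehydrogenase ratio is above 0 in most BP libraries and below 0 in all NSC and NBN libraries.

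The stretch before the start of transcription is shown for 4 genes because Ldha, Pgk1 and Hk2 fell together in NSC and Ldhb did not. Each line gives the 250 bases before the first RefSeq start (GRCm38.p6), 5′ to 3′ on the gene's own strand. Capitals mark the 5 letters ACGTG or GCGTG, the core of the hypoxia response element, read on either strand (as CACGT or CACGC); where CACGT and ACGTG overlap in CACGTG, the run of 6 is in capitals. The windows lie at chr7:46845554-46845803 on the plus strand (Ldha), chrX:106186850-106187099 on the plus strand (Pgk1), chr6:82774455-82774704 on the minus strand (Hk2) and chr6:142507958-142508207 on the minus strand (Ldhb).
Ldha: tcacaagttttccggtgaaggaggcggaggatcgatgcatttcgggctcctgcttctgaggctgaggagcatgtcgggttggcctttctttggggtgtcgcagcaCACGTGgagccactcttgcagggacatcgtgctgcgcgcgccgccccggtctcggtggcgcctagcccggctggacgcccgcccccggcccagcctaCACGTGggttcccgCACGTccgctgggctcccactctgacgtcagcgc
Pgk1: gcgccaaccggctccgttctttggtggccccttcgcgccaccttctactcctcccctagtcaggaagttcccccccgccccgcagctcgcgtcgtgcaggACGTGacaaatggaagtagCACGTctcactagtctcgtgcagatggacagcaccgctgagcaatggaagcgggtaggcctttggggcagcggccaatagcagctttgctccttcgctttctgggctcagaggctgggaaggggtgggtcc
Hk2: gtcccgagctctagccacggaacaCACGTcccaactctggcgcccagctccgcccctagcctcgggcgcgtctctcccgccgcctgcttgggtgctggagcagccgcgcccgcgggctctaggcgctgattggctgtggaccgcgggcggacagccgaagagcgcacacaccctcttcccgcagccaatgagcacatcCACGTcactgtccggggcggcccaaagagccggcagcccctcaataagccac
Ldhb: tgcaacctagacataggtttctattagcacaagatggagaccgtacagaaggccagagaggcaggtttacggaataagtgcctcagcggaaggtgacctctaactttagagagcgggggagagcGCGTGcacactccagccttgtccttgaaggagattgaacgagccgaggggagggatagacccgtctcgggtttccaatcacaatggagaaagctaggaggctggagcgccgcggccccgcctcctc
The Ldha window holds CACGTG 2 times and CACGT once more nearer the start, and the nearer 2 of its 3 matches begin 48 and 34 bases before the start. Pgk1 has ACGTG 150 bases and CACGT 131 bases before the start, Hk2 has CACGT 226 and 52 bases before it, and Ldhb has GCGTG alone, 126 bases before it. RefSeq windows were matched for 9 of the 10 genes. Among the other tested genes that fell in NSC, Slc2a1 has ACGTG and CACGC in its window. The first windows of Aldoa and Pkm, which fell too, hold no match. Nor does the first window of Hk1, which rose. Window 2 of Hk1 holds CACGC 196 and 15 bases and GCGTG 12 bases before its start. Window 2 of Pkm and windows 2 and 3 of Aldoa hold CACGT. The part of such matches in the courses was not tested. A gene with several starts has several windows, 17 for the 9 genes, of which 8 hold ACGTG and 14 hold ACGTG or GCGTG. Some of these windows overlap, so the counts include the same site more than once. Windows 1, 2 and 3 of Ak4 share 1 CACGC and 1 GCGTG, and windows 2 and 3 of Aldoa share 1 CACGT. Over all 32851 windows of that length, 16.6% hold ACGTG, 28.2% GCGTG and 38.6% either. Such a match is a description of letters and shows no binding.

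Of 20 tested genes of glucose transport and glycolysis beside the members, 10 fell and 8 rose in NSC, where 27.7% of all tested genes fell and 37.1% rose, with a median change of -0.22 beside 0.09 for all, all changes being log2 changes over the span ± SE as before. Gapdh, an enzyme that acts after aldolase, fell by 1.46 ± 0.14 (adjusted p = 1.07e-12). Its mean was 6277 ± 717 TPM (SD, n = 3) at E11.5 and 2222 ± 236 TPM (SD, n = 3) at E18.5. Tpi1, triose phosphate isomerase, fell by 1.87 ± 0.21 (adjusted p = 3.87e-11), and Slc2a8, an intracellular glucose transporter, rose by 1.22 ± 0.12 (adjusted p = 5.66e-13). In BP 6 of the 20 rose, a share near the 27.5% of all tested genes, and 1 fell, beside 15.1%. They included Slc2a3, the neuronal glucose transporter GLUT3, up by 1.12 ± 0.18 (adjusted p = 1.27e-06) and Aldoc up by 1.46 ± 0.55 (adjusted p = 0.0275). In NBN Bpgm, which makes 2,3-bisphosphoglycerate, rose by 1.48 ± 0.16 (adjusted p = 6.15e-10). Against BP, NSC held more Aldoc, the aldolase of radial glia and astrocytes, by 3.46 ± 0.24 (adjusted p = 3.79e-17), with 7 of the 20 higher and 3 lower, beside 27.2% and 20.8%. NBN held more of the neuronal enolase Eno2, by 1.26 ± 0.12 (adjusted p = 1.01e-12), and of the phosphofructokinase Pfkp, by 1.68 ± 0.18 (adjusted p = 1.60e-11), with 10 higher and 4 lower, beside 25.3% and 33.3%. Against NSC, Aldoc was lower in NBN (-3.03 ± 0.32, adjusted p = 2.28e-11).

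Among 15 genes that decide the fate of pyruvate and lactate, 8 rose and 6 fell in NSC, beside 37.1% and 27.7% of all tested genes (median 0.31, beside 0.09). Mpc1, a subunit of the mitochondrial pyruvate carrier, rose by 1.83 ± 0.11 (adjusted p = 1.06e-19), from 45.4 ± 13.2 TPM (SD, n = 3) at E11.5 to 152 ± 6.72 TPM (SD, n = 3) at E18.5. Pcx, pyruvate carboxylase, rose by 1.58 ± 0.11 (adjusted p = 6.41e-17), and Pdk3, a kinase that shuts pyruvate dehydrogenase, fell by 1.38 ± 0.10 (adjusted p = 1.96e-16). In BP 6 rose and 3 fell, beside 27.5% and 15.1%: Pdk2 rose by 1.32 ± 0.14 (adjusted p = 1.51e-10), the lactate carrier Slc16a1 (MCT1) rose by 1.30 ± 0.17 (adjusted p = 1.00e-08) and Slc16a3 (MCT4), a carrier of glycolytic cells, fell by 1.27 ± 0.41 (adjusted p = 0.00923). Slc16a1 is also a gene of vessels, and the part of the endothelial and pericyte markers, which rose in BP, was not tested. Slc16a7 (MCT2), the lactate carrier of neurons, was higher in NBN than in BP by 2.07 ± 0.16 (adjusted p = 4.03e-16) and than in NSC by 1.18 ± 0.16 (adjusted p = 1.62e-08), and rose within NBN by 1.23 ± 0.31 (adjusted p = 0.00286). Pdk2 was lower in NBN than in BP (-1.39 ± 0.08, adjusted p = 9.06e-20).

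Of the oxygen sensors and factors, 3 of 10 rose and 2 fell in NSC, 4 rose and 4 fell in BP, and 1 rose and 1 fell in NBN. The shares of all tested genes were 37.1% and 27.7% in NSC, 27.5% and 15.1% in BP and 10.9% and 5.08% in NBN. Hif1a, the oxygen-regulated factor itself, had a slope of -0.37 ± 0.19 in NSC that did not pass (adjusted p = 0.0850) and fell by 0.63 ± 0.22 in BP (adjusted p = 0.0165). It is chiefly regulated as a protein, which RNA does not show. Hif3a fell by 2.57 ± 0.30 in NSC (adjusted p = 3.20e-10) and in BP (-2.34 ± 0.34, adjusted p = 1.73e-07). Egln3, a prolyl hydroxylase that is itself induced by hypoxia, rose in NSC by 1.33 ± 0.25 (adjusted p = 6.92e-06) and in BP by 2.15 ± 0.28 (adjusted p = 1.10e-08), and was higher in NSC than in BP by 1.88 ± 0.12 (adjusted p = 2.94e-18). Its mean in NSC was 12.4 ± 3.21 TPM (SD, n = 3) at E17.5 and 50.5 ± 23.3 TPM (SD, n = 3) at E18.5, when the astrocyte marker sum also rose from a median of 85.34 to 353.1 TPM; the part of that in the Egln3 level was not tested. Epas1 rose in BP by 1.21 ± 0.34 (adjusted p = 0.00285), where the sum of 8 endothelial and pericyte markers reached 102.4 TPM at E16.5 and 117.8 TPM at E17.5 in single libraries, beside 1.363 to 1.563 TPM at E12.5. The part of those cells in the Epas1 level was not tested.

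Of 25 other hypoxia response targets, 12 fell and 4 rose in NSC, beside 27.7% and 37.1% of all tested genes (median -0.21, beside 0.09). Of the 25, 14 were higher and 5 lower in NSC than in BP, beside 27.2% and 20.8% (median 0.24, beside 0.002). Tfrc, the transferrin receptor, fell by 2.01 ± 0.24 in NSC (adjusted p = 6.61e-10), as did Higd1a (-1.11 ± 0.14, adjusted p = 9.09e-10) and the glycogen branching enzyme Gbe1 (-1.11 ± 0.17, adjusted p = 9.20e-08). Vegfa, the vessel growth factor and a known target, had a slope of -0.03 ± 0.23 in NSC that did not pass (adjusted p = 0.910). Bhlhe40 was higher in NSC than in BP by 2.14 ± 0.13 (adjusted p = 2.82e-19) and higher in NBN than in BP by 1.59 ± 0.17 (adjusted p = 2.28e-11), and it rose within NBN by 1.85 ± 0.33 (adjusted p = 4.10e-05). The microglia and macrophage markers moved the same way in both NBN comparisons, and their part was not tested. NSC also exceeded BP in Ppp1r3c, a glycogen targeting subunit, by 1.12 ± 0.08 (adjusted p = 8.71e-17) and in the collagen-modifying enzyme Plod2 by 1.00 ± 0.12 (adjusted p = 6.29e-10). In BP 7 rose and 4 fell, beside 27.5% and 15.1%, with Stc2 up by 2.67 ± 0.32 (adjusted p = 1.90e-09), Plod1 up by 1.78 ± 0.25 (adjusted p = 6.81e-08) and Tfrc down (-1.43 ± 0.27, adjusted p = 2.61e-05). Lower in NBN than in BP were Stc2 (-1.44 ± 0.18, adjusted p = 3.06e-09) and Plod1 (-1.21 ± 0.14, adjusted p = 3.82e-10). In NBN 4 rose and 2 fell, beside 10.9% and 5.08%.

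The relatives of Ak4 and Ndrg1 had courses of their own. Of 7 tested genes, 6 rose in NSC, beside 37.1% of all tested genes. Ndrg3 rose in NSC by 1.52 ± 0.07 (adjusted p = 5.46e-23) and in BP by 1.01 ± 0.08 (adjusted p = 2.34e-14). Ndrg2, a gene of astrocytes and stem cells, rose in BP by 3.03 ± 0.41 (adjusted p = 2.48e-08) and was higher in NSC than in BP by 1.28 ± 0.18 (adjusted p = 4.38e-08). In BP 4 of 6 astrocyte markers (median 1.01) and 4 of 8 stem cell markers (median 0.61) rose too, and their part in the BP rises of Ndrg2 and Aldoc was not tested. Ndrg4 was higher in NBN than in BP by 1.22 ± 0.13 (adjusted p = 2.22e-11). Ak1, the cytosolic adenylate kinase, rose in NSC by 1.98 ± 0.16 (adjusted p = 6.30e-15). Ak5 was higher in NBN than in BP by 1.53 ± 0.11 (adjusted p = 4.39e-17), at a mean of 3.02 ± 1.01 TPM (SD, n = 3) in NBN at E18.5.

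The members were related to each other in pairs. Over the 19 group means, many of which share a cell type or a day, the Pearson r was 0.956 for Pkm and Pgk1, 0.950 for Hk2 and Pgk1 and -0.839 for Hk1 and Hk2. Over the deviations of the 63 libraries from their group means, it was 0.928 for Pkm and Aldoa, 0.924 for Ldha and Pgk1, 0.83 for Hk2 and Slc2a1, 0.654 for Hk1 and Ndrg1 and -0.523 for Hk1 and Hk2. The first 3 of these pairs are genes that fell in NSC, and among the pairs named the hexokinases had the negative value. That sign was not particular to them. Over the group means Hk1 was negative with every other member but Ndrg1 (0.811), from -0.287 for Ak4 to -0.877 for Pkm. Over the deviations its values ran from -0.523 with Hk2 to 0.654 with Ndrg1. Sequencing depth is unknown and the labels name no batch, so a shared technical part in these values cannot be told apart. The values are a description with no test.

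Among 11245 tested genes with at least 10 TPM in a group, those most like each member over the 19 group means were found by Pearson's r. Aldoa was closest to further glycolytic enzymes, Gpi1 (0.985) and Pfkl (0.978), and Slc2a1 to Pgd (0.972), an enzyme of the pentose phosphate pathway, and Top3a (0.969). Pgk1 was closest to its copy Pgk1-rs7 (0.999) and then to Higd1a (0.980), Ldha to Hspe1 (0.977) and Prmt5 (0.969), Hk2 to Naa40 (0.973) and Ddx18 (0.971), and Pkm to Prpf31 (0.978) and Nutf2 (0.975). Hk1 was closest to Magee2 (0.992) and Mgat3 (0.988), Ndrg1 to Bend6 (0.971) and Sla (0.965), Ak4 to Nthl1 (0.977) and Kat7 (0.950), and Ldhb to Ncstn (0.965) and Nsun4 (0.951). When each gene's 19 groups were put in order of their means, most neighbours overlapped: 18 of 18 neighbouring pairs for Pkm, Ldha and Aldoa, 17 of 18 for Hk1, Ldhb, Pgk1, Slc2a1 and Ak4, 15 of 18 for Hk2 and 14 of 18 for Ndrg1. The ratio of the highest to the lowest group mean was 420 for Ndrg1, 21.7 for Ak4, 15.1 for Hk2, 8.13 for Slc2a1, 7.62 for Ldha, 5.66 for Hk1, 5.27 for Pgk1, 3.58 for Pkm, 3.49 for Aldoa and 1.88 for Ldhb.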

How the data were processed

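Total RNA of sorted cells was extracted with TRIzol and made into libraries with Illumina's TruSeq kit, per the labels' protocols. The authors deposited TPM per gene (23078 genes), obtained with kallisto 0.43.0, per the submitters' processing notes, which name GRCm38.p2 and mm10. No counts were used, so sequencing depth is unknown and errors are those between libraries. Each library had 16823 to 21890 genes above 0 TPM. The labels name no batch or date. They give every sample as female, although Y-linked transcripts were present in many libraries.

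From the deposited TPM, log2(TPM + 1) was computed. limma 3.58.1 (R 4.3.3) fitted 1 mean for each of 19 groups to 63 libraries, with a variance trend, for 15231 genes that reached 1 TPM in 3 libraries or more, and Benjamini-Hochberg adjustment ran over these. Courses were slopes through the group means. The slopes of NSC and BP were compared over E12.5 to E18.5. On simulated data with 200 of 15231 genes changed by a log2 of 1, the share recovered was 66% for the slope difference and 99.5% for NBN minus BP. Figures were drawn with matplotlib 3.10.9.

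Members and gene lists were chosen with earlier results of these data known. Named were the members, up to 3 genes per pathway list and comparison with the smallest adjusted p among those that passed with a log2 change of at least 1, and the 2 genes most like each member. Hif1a, Vegfa and Ski were named outside this rule, after their values were seen. The result of 1 gene that the rule names is not reported here. The alternatives tried were other pseudocounts (0.1 and 5), the low-value filter dropped or raised to a mean of 5 TPM, quantile or median-of-ratios scaling, a fit to the contrast's libraries alone, a replicate block, a Y-linked covariate, no E18.5, last minus first day, and every library left out in turn. A further 3 were chosen after seeing the data: no NSC E12.5, none of the 8 libraries that stood apart, and a block on number within each day for BP and NBN.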

Additional observations from a re-analysis of the deposited data

Results flagged for a closer look

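Ldhb in NSC at E14.5 stood at 546 TPM in replicate 2, far above the 391, 400 and 402 TPM of the other libraries of its group. This library is 1 of the 8 that stood apart from their groups over all genes. It was the 1 such case in 50 sets of 4 or more libraries tested, and chance gives about 1 in 20. The slopes of NSC and BP over E12.5 to E18.5 differed by limma's test of the difference for 6 genes: Hk2 (log2 difference -1.80), Slc2a1 (-1.66), Ldha (-1.40), Pkm (-0.85), Aldoa (-0.84) and Hk1 (0.58).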

How the results depend on the processing

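Of 72 tests of the members, 42 passed. Over all alternatives these had 3156 values, which kept their direction in all but 1 and their call in all but 26 more. Most of these values come from leaving out single libraries. A library outside the contrast cannot move its estimate, and the range used for any day cannot change sign. The count of unchanged values is therefore no measure of how firm a result is. The exception in direction was the difference of the Hk1 slopes taken as last minus first day, -0.26 (adjusted p = 0.609). By limma, calls also ended for Pgk1 in NBN minus NSC with median-of-ratios scaling (adjusted p = 0.106) and without E18.5 (0.0855), for the BP slopes of Pkm and Pgk1 without E18.5 (0.194 and 0.0612) and by last minus first day (0.165 and 0.102), and for the slope differences of Hk1 with median-of-ratios scaling (0.0600) or only the libraries of the contrast (0.0503) and of Aldoa by last minus first day (0.0933). Calls were gained for the Ldhb slope in NSC (0.222, adjusted p = 0.0160), Ldhb in NSC on any day (0.0328) and Ldhb in NSC minus BP (0.0119) with quantile scaling, for the Slc2a1 slope in BP with only the libraries of the contrast (0.365, 0.0291), for the Pgk1 slope difference without E18.5 (-0.957, 0.0221), and, without the 8 libraries apart, for Ldhb in NSC minus BP (0.00893) and its BP slope (0.237, 0.0413). The cause of these changes was not tested. By limma, the count of members passed in BP on any day, 1 as reported, was 2 with a pseudocount of 0.1, 4 with quantile scaling, 3 with median-of-ratios scaling, 4 with only the libraries of the contrast, 5 without the 8 libraries apart, and 1 to 4 with single libraries left out. All genes passed on that test were 5874 as reported, 6020 with a pseudocount of 0.1 and 4996 to 6936 with single libraries left out. The count for the NBN slope, 0 as reported, was 1 with a pseudocount of 5 or quantile scaling, 2 with only the libraries of the contrast and 0 to 1 with single libraries left out. All genes passed for the NBN slope were 2441 as reported, 2408 with a pseudocount of 5 and 1667 to 2651 with single libraries left out. The count for the BP slope, 3 as reported, was 1 without E18.5, 1 by last minus first day, and 1 to 3 with single libraries left out, the lowest without BP E12.5 replicate 1. All genes passed for the BP slope were 6487 as reported and 5039 to 6783 with single libraries left out. For the remaining alternatives no share of all genes stands beside these counts of members. All genes passed were 1414 for the NBN slope without E18.5, beside 2441, and 1304 for the slope difference by last minus first day, beside 4545. At a pseudocount of 5 the mean log2 ratio of Hk2 to Hk1 was -2.65 in BP and -4.23 in NBN.

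Values near 0 that did not pass changed sign. With quantile scaling these were Ldha in NBN minus NSC (-0.021), the Aldoa slope in BP (-0.003) and the difference of the Ldhb slopes (0.086). With median-of-ratios scaling they were Aldoa in NBN minus BP (0.023) and the Aldoa slope in BP (-0.10). Without E18.5 they were Hk1 in NSC minus BP (0.002), Ldha in NBN minus NSC (-0.024) and the NBN slopes of Ldhb (0.13) and Aldoa (0.087). With single libraries left out, values ran as follows: Ldha in NBN minus NSC from -0.057 to 0.081, the difference of the Ldhb slopes from -0.138 to 0.062, the Aldoa slope in BP from -0.091 to 0.114, Aldoa in NBN minus BP from -0.123 to 0.034, the Pgk1 slope in NBN from -0.061 to 0.234, the Ldhb slope in NBN from -0.071 to 0.008. Quantile scaling moved the share of higher among all passed genes from 56.6% to 43.9% in NSC minus BP, from 40.0% to 53.0% in NBN minus NSC, from 57.2% to 46.0% for the NSC slope, from 64.5% to 50.7% for the BP slope and from 68.3% to 54.2% for the NBN slope. It moved the median NSC slope of all genes from 0.09 to -0.07. Median-of-ratios scaling gave 51.4% in NBN minus NSC and 51.1% for the BP slope.

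Same-numbered libraries of BP and NBN deviated together in 12 of 13 pairs at a correlation above 0.1 (lowest -0.15), with a median of 0.369 beside -0.14 for different numbers. For NSC and BP it was 6 of 19 and for NSC and NBN 6 of 12. Deviations within a group sum to 0, so positive values for same numbers push those for different numbers below 0. The labels state no pairing, so the main comparison of NBN and BP has no block, although only 1 same-numbered pair lay below 0.1. If these libraries are paired, the SEs and p-values of that comparison ignore it. The call that changed under a block within each day is given with it. With a replicate block the Aldoa slope in BP was -0.016, and Ldhb in NSC minus BP passed (-0.13, adjusted p = 0.0252). With number within each day as the block, Pgk1 in NBN minus BP passed (adjusted p = 0.00245), 7 members in place of 6.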
